A study of Mus musculus with 4 samples.

Results

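Genes of 3 families of RNA-binding proteins were followed in round spermatids, the haploid germ cells that come after meiosis and before elongation. They are the SR proteins (symbols beginning with Srsf, and the older Sfrs), the heterogeneous nuclear ribonucleoproteins (hnRNPs, beginning with Hnrn) and the genes named for an RNA-binding motif (beginning with Rbm). Members were picked by symbol alone, with rows marked as pseudogenes left out, which gave 76 of the 25965 rows of the deposited table. They hold 12 SR rows, 18 hnRNP rows and 46 Rbm rows, for 74 symbols, because Rbm15b and Rbm31y each had 2 rows at separate positions. The 12 SR rows count Sfrs18, now called Pnisr.

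The cells were sorted from testis of ICR mice and came in 2 groups of 2 libraries each. Cells of mice labelled Wfdc15a-/-, with both copies of the gene altered, were set against cells of Wfdc15a+/- mice, which carry 1 altered copy and served as controls. Wild-type controls, mentioned in the design text, were not analysed here, so every library below carries at least 1 altered allele. Messenger RNA was amplified with Smart-seq2, a full-length protocol that keeps no strand information, and values are RPM, the count of a gene divided by all reads of its library and brought to a common total of 1e6, without a correction for gene length. The labels give no age, do not describe the altered allele and do not say whether the 2 libraries of a group came from separate animals, so the p-values speak only to the spread among these 4 libraries, part or all of which may be technical.

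SR proteins bind exonic enhancers through an RNA recognition motif and recruit the spliceosome through a tail of alternating serine and arginine, which dedicated kinases phosphorylate. hnRNPs coat nascent transcripts, and many of them repress exons, so that the balance between the families sets the choice of splice sites. The Rbm symbols form a mixed group: some are spliceosome components, some are regulators of splicing or of RNA decay, and several act mainly in germ cells. Spermatogenesis uses alternative splicing heavily, and the sex chromosomes are silenced at meiosis and stay largely repressed in round spermatids, so that autosomal retrocopies of X-linked RNA-binding genes can matter there.

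Near-identical copies are part of these families, and the start of the coding sequence shows how close they are. The first 60 coding bases are printed 5′ to 3′ from the GENCODE M21 annotation of the mm10 genome, for the X-linked Rbmx (which encodes hnRNP G) and its autosomal copies Rbmxl1 on chromosome 8 and Rbmxl2 on chromosome 7. Capitals mark bases that differ from Rbmx, 3 in Rbmxl1 and 16 in Rbmxl2.
Rbmx: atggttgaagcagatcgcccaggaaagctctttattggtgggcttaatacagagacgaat
Rbmxl1: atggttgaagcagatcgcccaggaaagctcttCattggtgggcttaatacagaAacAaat
Rbmxl2: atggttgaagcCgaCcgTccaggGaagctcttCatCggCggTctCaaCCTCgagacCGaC

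Over the whole coding sequence Rbmxl1 was 90.9% identical to Rbmx, and Rbmxl2 68.1%. The neighbouring genes Rbm4b and Rbm4 on chromosome 19 begin with the same 60 bases and were 86.5% identical over the coding sequence.
Rbm4b: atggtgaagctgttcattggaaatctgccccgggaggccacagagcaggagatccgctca
Rbm4: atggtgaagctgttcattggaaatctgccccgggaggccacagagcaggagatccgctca

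Among other close pairs, Hnrnph2 matched Hnrnph1 at 85.4% of aligned coding bases, Hnrnpf matched Hnrnph1 at 77.3%, Hnrnpa3 matched Hnrnpa1 at 75.7% and Srsf6 matched Srsf4 at 73.3%. Of the 74 members with a GENCODE transcript, 26 shared at least 10% of their 50-base windows with a transcript of another gene. The share was 100% for Rbmy1a1 and the Rbm31y row with reads, 92.3% for Rbm42, 91.0% for Hnrnpa3 and 79.0% for Rbmxl1. Next came Hnrnpf (67.3%), Rbm4 (66.5%), Srsf4 (65.4%), Rbm12b (63.1%), Rbm4b (50.5%), Hnrnpa1 (46.4%), Rbm10 (44.0%) and Hnrnpk (37.8%). Among those with a share of 0% were Srsf6, Srsf11, Rbm5, Rbms1, Hnrnpu, Rbm22, Rbm44 and Rbm46. A shared window need not come from a copy elsewhere, since genes that overlap at the same place share sequence too. All shared windows of Srsf4 lie in Gm12992, which overlaps it on the opposite strand with 1532 shared exon bases. How the authors assigned reads that match several genes was not given in the sources used here, so levels of the members that share windows are uncertain.

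The deposited values also count reads over the whole span of a gene, introns included, and without strand. Among pairs in which one gene lies within the span of another and touches none of its exons, and the inner gene had at least 100 reads, the outer gene held at least as many reads as the inner one in all 4 libraries for 285 of 285 pairs on opposite strands and 147 of 147 on the same strand. Of the members, 25 overlap another row, and any reads of the neighbour that fall in the shared stretch cannot be told from their own (Gm17396, the neighbour of Rbms3, had 0 reads). Srsf2 lies inside 1110005A03Rik, which averaged 52.3 RPM against 20.8 RPM for Srsf2. Agxt2l2 at 44.8 RPM covers 65.1% of the span of Hnrnpab, and both rows of Rbm15b lie inside Manf, at 301 RPM.

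Per length, the levels of the members ran between 0.077 and 126 RPM per kb of exon, and the highest mean was that of Rbm4b, a regulator of alternative splicing. To compare genes, RPM were divided by the length of merged GENCODE exons and averaged over the 4 libraries. Since reads from introns are in the values, this is a level per kb of exon and not a pure exon count. Rbm4b was at 128 and 131 RPM per kb in Wfdc15a-/- cells and at 86.7 and 159 RPM per kb in Wfdc15a+/- cells, a mean of 126. After it came Hnrnpf (80.5 RPM per kb), which binds runs of G, Srsf5 (77.8), Hnrnph1 (71.8), Rbms1 (70.2), a protein that binds single-stranded DNA and RNA, and Hnrnpk (68.8), which binds runs of C. These 5 followed each other closely: the 4 libraries of Hnrnpf ran between 70.8 and 91.1 RPM per kb and those of Hnrnpk between 60.6 and 76.5, so their order is within the spread between libraries.

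The next group held Rbm7 (49.9 RPM per kb), a subunit of the complex that feeds nuclear RNA to the exosome, Rbm25 (48.0), which associates with the U1 particle, Hnrnpa2b1 (41.1), Hnrnpu (40.4), a scaffold protein of chromatin, and Srsf7 (33.5). Below them stood Rbm39 (24.2), a splicing factor, Rbm5 (23.9), Hnrnpa1 (23.9), Srsf11 (21.4), Srsf3 (17.1) and Srsf2 (10.4). Among the 72 members with a level per kb, 6 reached at least 50 RPM per kb, 24 lay from 10 to 50, 31 from 1 to 10 and 11 under 1. The median was 13.1 RPM per kb for hnRNP genes, 8.08 for SR genes and 3.39 for Rbm genes. Over the 66 tested members with a length it was 8.08 RPM per kb, beside 4.53 over the 15439 tested genes with a length. Of the 15 members that led by exon length, 11 also led when the RPM were divided by the whole span of the gene. By span Rbm4b kept rank 1, and Srsf5, Hnrnph1 and Hnrnpk held ranks 2, 6 and 3. Hnrnpf went from rank 2 by exon length to 11 by span, and Rbms1, whose span is 213 kb, from 5 to 34.

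**Figure D1:**
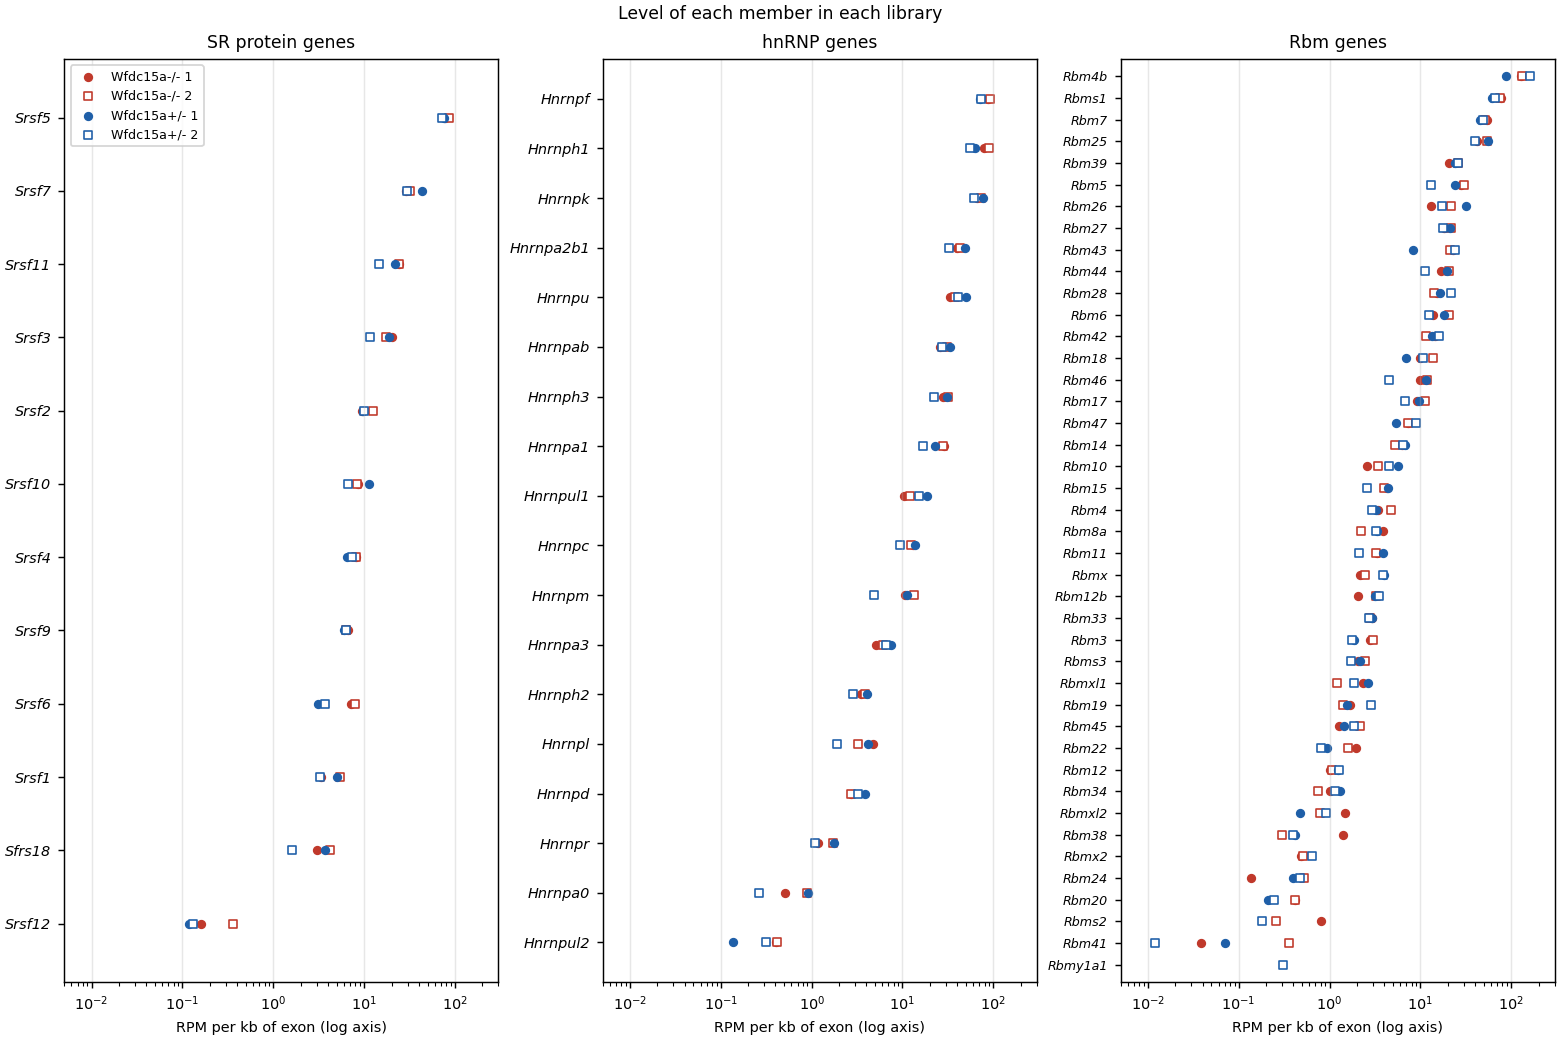
Level of each member in RPM per kb of exon (log axis) in 4 libraries, red for Wfdc15a-/- and blue for Wfdc15a+/-, in panels by family, with libraries that had no read not drawn. Rbm4b leads at a mean of 126 RPM per kb, most points of a member lie close together, and 11 members average under 1 RPM per kb.

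Rbm4b and Rbm4 differ far more in level than in sequence. Rbm4b had 260 and 268 RPM in Wfdc15a-/- cells, against 177 and 324 RPM in Wfdc15a+/- cells. Rbm4 had 9.50 and 13.2 RPM in Wfdc15a-/- cells, against 9.01 and 8.01 RPM in Wfdc15a+/- cells. The ratio of Rbm4b to Rbm4 in RPM was thus 27.4 and 20.3 in Wfdc15a-/- libraries and 19.6 and 40.5 in Wfdc15a+/- libraries, and the ranges of the groups overlapped. A further row, which GENCODE places as a readthrough gene over the spans of Rbm4b, Rbm4 and Rbm14, held 305 and 317 RPM in Wfdc15a-/- cells, against 225 and 370 RPM in Wfdc15a+/- cells. In every library that was between 1.03 and 1.06 times the sum of the other 3 rows, so its value repeats their reads.

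The promoters of the pair are shown because the level differs so much, and that of Srsf6 because it had the smallest p of all members. They are RefSeq windows of the GRCm38.p6 assembly from 250 bases before to 50 bases after the start of the gene, 5′ to 3′ along the gene's strand. For Rbm4 the window printed is the one whose start is that of the deposited row and holds 1 match, while the other RefSeq window, chr19:4793960-4794259, holds 2, as does that of Rbm4b. Capitals mark the letters TGACG or, for the other strand, CGTCA, which are one arm of the palindrome bound by the CREB and CREM factors. CREM is a master regulator of transcription in round spermatids.
Rbm4b, chr19:4756275-4756574, plus strand: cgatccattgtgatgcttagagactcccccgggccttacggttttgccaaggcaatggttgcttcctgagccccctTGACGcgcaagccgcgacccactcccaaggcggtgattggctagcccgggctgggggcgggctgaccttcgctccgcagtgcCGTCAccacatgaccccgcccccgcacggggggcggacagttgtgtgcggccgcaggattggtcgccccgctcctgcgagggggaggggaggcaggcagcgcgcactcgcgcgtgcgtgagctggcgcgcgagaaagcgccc
Rbm4, chr19:4793852-4794151, minus strand: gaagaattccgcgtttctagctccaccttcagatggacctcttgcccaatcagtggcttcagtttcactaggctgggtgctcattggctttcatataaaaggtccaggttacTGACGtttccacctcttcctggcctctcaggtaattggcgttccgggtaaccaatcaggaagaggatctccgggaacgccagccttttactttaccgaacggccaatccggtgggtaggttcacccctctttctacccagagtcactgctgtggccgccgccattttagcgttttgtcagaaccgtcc
Srsf6, chr2:162931258-162931557, plus strand: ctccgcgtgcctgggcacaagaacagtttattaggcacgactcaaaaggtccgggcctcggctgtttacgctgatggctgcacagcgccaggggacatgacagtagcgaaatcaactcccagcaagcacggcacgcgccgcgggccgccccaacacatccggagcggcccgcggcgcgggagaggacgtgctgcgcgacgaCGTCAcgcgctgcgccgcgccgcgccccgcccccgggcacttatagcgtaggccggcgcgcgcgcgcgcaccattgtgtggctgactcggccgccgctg

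Of 86 RefSeq promoters found for 65 member symbols, 38 held TGACG on either strand (44.2%), beside 28.4% of the 14791 promoters of tested genes and 20.8% of all 32851. The full palindrome TGACGTCA, which contains the shorter motif, was in 0 of the 86, beside 2.85% of the promoters of tested genes. The member promoters were also rich in CpG, with a median of 25 per window, beside 18 for tested genes, and TGACG itself holds a CpG. Among windows with 20 to 30 CpG the motif was in 16 of 31 member promoters (51.6%) and in 38.2% of 4099 promoters of tested genes. These 31 windows come from 26 genes, and some windows of a gene overlap and repeat the same site. All RefSeq windows of Hnrnph1 fall in this class and hold the motif, so that gene weighs heavily in the member share. The box TATAAA stood in 15.1% of member promoters and 8.03% of those of tested genes, and CCAAT in 47.7% and 37.3%, each on either strand. Over all RefSeq promoters the shares were 13.6% and 37.4%. Among windows with 20 to 30 CpG, TATAAA was in 6.45% of member promoters and 4.22% of those of tested genes. For CCAAT these shares were 58.1% and 38.9%. A match is a string of letters and not a measured binding site.

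The comparison of genotypes asked which transcripts differ between Wfdc15a-/- and Wfdc15a+/- spermatids. Reads of Wfdc15a itself were found in every library, with 82.6 and 59.5 RPM in Wfdc15a-/- cells, against 121 and 85.2 RPM in Wfdc15a+/- cells (log2 difference -0.53, SE 0.29, limma adjusted p = 0.647), so the transcript level does not check the labels and the genotypes stand as labelled. Library totals were 21160061 and 11268909 reads for Wfdc15a-/- 1 and 2, and 5774112 and 33853604 reads for Wfdc15a+/- 1 and 2. One read was worth 0.0473 and 0.0887 RPM in Wfdc15a-/- libraries and 0.173 and 0.0295 RPM in Wfdc15a+/- libraries, so low members are least precise in Wfdc15a+/- 1. Differences are on the log2 RPM scale, from limma fitted to all genes with at least 1 RPM in at least 2 of the 4 libraries, with Benjamini-Hochberg adjustment over all 15888 of them and 0.05 as the threshold. Of the members, 68 were tested (11 SR, 18 hnRNP and 39 Rbm), and 0 of these passed the filter through 1 group only. The 8 left out were Srsf12, Rbm38, Rbm41, Rbms2, Rbmx2, Rbmy1a1 and both rows of Rbm31y.

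No member passed the test: 0 of 68 had an adjusted p under 0.05 in limma, as did 0 of all 15888 genes (0%). At an unadjusted p under 0.05, 2 members were higher in Wfdc15a-/- cells, Srsf6 and Hnrnph1, and 0 were lower, beside 6.21% of all tested genes higher and 1.87% lower. Of the unadjusted calls among all genes 76.9% were higher, and this share was 64.0% under median-ratio scaling and 55.9% under quantile normalization. Both Wfdc15a-/- libraries lay above both Wfdc15a+/- libraries for 16 members (23.5% of all tested genes did so), both lay below for 11 (15% of all tested genes), and the groups overlapped for 41. The members' shares in these classes were thus 23.5% and 16.2%, close to those of all genes.

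Most members differed between the groups about as much as most genes, with a median absolute log2 difference of 0.33 beside 0.34 for all tested genes, and large differences were less frequent among them. Their median signed log2 difference was 0.13, beside 0.068 for all tested genes, with 45 members above 0 and 23 below. Only 3 members, Srsf6, Rbm22 and Hnrnpul2, differed by more than 1 on the log2 scale (4.41%), beside 15.7% of all genes, and 9 in 10 members lay within 0.73, beside 1.31 for all genes. The members were also more abundant, with a median of 24.6 RPM beside 12.7 RPM. Across the 4 libraries the highest value of a tested member was 1.10 to 4.15 times its lowest, with a median of 1.68, and for 50 of 68 it was at most 2 times. For 29 members the 95% confidence interval of the log2 difference lay wholly within 1 of 0, so that a change of 2-fold or more was outside it in either direction. The standard errors ran between 0.20 and 1.13, and for the other members the interval reached beyond such a change on at least 1 side.

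**Figure D2:**
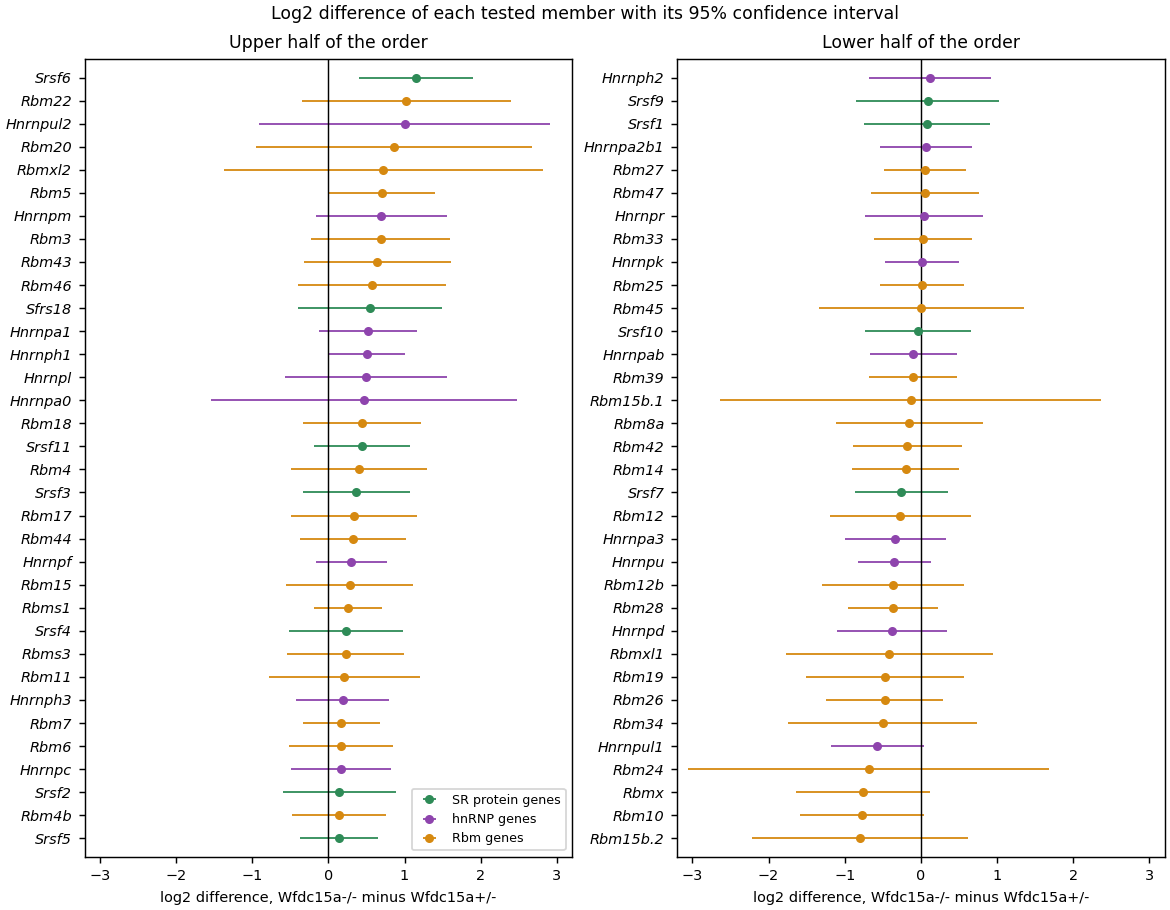
Log2 difference of each of the 68 tested members, Wfdc15a-/- minus Wfdc15a+/-, with its 95% confidence interval from limma, ordered by size and coloured by family. The intervals of Srsf6 and Hnrnph1 exclude 0 before adjustment, and no adjusted p is under 0.05.

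Among SR genes the difference with the smallest p was that of Srsf6, which encodes SRp55. Srsf6, a gene of 7 merged exons at chromosome 2, 162931528 to 162937121 on the plus strand of mm10, had 26.7 and 28.9 RPM in Wfdc15a-/- cells, against 11.4 and 13.7 RPM in Wfdc15a+/- cells. The groups were well apart, at a mean of 27.8 ± 1.58 RPM in Wfdc15a-/- cells and 12.6 ± 1.63 RPM in Wfdc15a+/- cells (SD, 2 libraries each), a ratio of 2.21. The log2 difference was 1.15 (SE 0.34, 95% confidence interval 0.41 to 1.89), and it did not pass after adjustment (limma adjusted p = 0.470). The library with the fewest reads, Wfdc15a+/- 1, held 66 reads of this gene, and the other 3 held between 326 and 565. No window of Srsf6 was shared with another gene, and no other row overlapped it.

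The other SR genes lay nearer to 0. With Srsf6 counted, 5 of 11 SR genes had both Wfdc15a-/- libraries on top (45.5%, beside 23.5% of all tested genes). None had both below (0, beside 15%), and the median log2 difference of the 11 was 0.14. Srsf11, which encodes SRp54, had 78.6 and 78.5 RPM in Wfdc15a-/- cells, against 70.8 and 47.5 RPM in Wfdc15a+/- cells (log2 difference 0.44, limma adjusted p = 0.713). Its groups did not overlap, and Wfdc15a+/- 2 was the low library. Srsf5, the most abundant SR gene, had 128 and 142 RPM in Wfdc15a-/- cells, against 127 and 119 RPM in Wfdc15a+/- cells (log2 difference 0.14). Srsf4 and Srsf9 were the remaining 2 genes with both Wfdc15a-/- libraries on top, by 0.23 and 0.09 on the log2 scale. Of the windows of Srsf4, 65.4% occur in another gene.

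Srsf7, Srsf3 and Srsf2, small SR proteins with roles in splicing and export, had overlapping groups. Srsf7 had 73.8 and 82.4 RPM in Wfdc15a-/- cells, against 112 and 77.2 RPM in Wfdc15a+/- cells. Srsf3 had 53.5 and 46.0 RPM in Wfdc15a-/- cells, against 49.0 and 30.2 RPM in Wfdc15a+/- cells. Srsf2 had 18.8 and 25.2 RPM in Wfdc15a-/- cells, against 19.2 and 20.1 RPM in Wfdc15a+/- cells, and its span is shared with other genes, as given above. In Srsf7 the high library was Wfdc15a+/- 1, and in Srsf3 the low one was Wfdc15a+/- 2, so the spread within the Wfdc15a+/- group was wider than the distance between the groups. Srsf12 stayed under the filter, at 0.47 and 1.06 RPM in Wfdc15a-/- cells and 0.35 and 0.38 RPM in Wfdc15a+/- cells.

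Among hnRNP genes, 4 had both Wfdc15a-/- libraries above and 4 had both below, of 18 (22.2% each, beside 23.5% and 15% of all tested genes), around a median log2 difference of 0.14. Hnrnph1, at chromosome 11, 50376990 to 50386528 on the plus strand with 16 merged exons, had 197 and 227 RPM in Wfdc15a-/- cells, against 158 and 139 RPM in Wfdc15a+/- cells. The groups did not overlap, at 212 ± 20.7 RPM in Wfdc15a-/- cells and 149 ± 13.1 RPM in Wfdc15a+/- cells (SD, 2 libraries each), a ratio of 1.43 and a log2 difference of 0.51 (SE 0.23, limma adjusted p = 0.607). Its relative Hnrnpf had 248 and 260 RPM in Wfdc15a-/- cells, against 203 and 210 RPM in Wfdc15a+/- cells, a log2 difference of 0.30 (limma adjusted p = 0.738). Hnrnpa1, a repressor of splicing, had 54.4 and 53.2 RPM in Wfdc15a-/- cells, against 43.5 and 32.3 RPM in Wfdc15a+/- cells, a log2 difference of 0.52 (limma adjusted p = 0.658). Hnrnpul2, at no more than 2.13 RPM in any library, was the other hnRNP gene with both Wfdc15a-/- libraries on top.

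The 4 hnRNP genes with both Wfdc15a-/- libraries lower were Hnrnpul1, Hnrnpu, Hnrnpd and Hnrnpa3. Hnrnpul1, a relative of Hnrnpu with a part in DNA repair, had 41.4 and 48.3 RPM in Wfdc15a-/- cells, against 73.4 and 60.3 RPM in Wfdc15a+/- cells (log2 difference -0.57, SE 0.28, limma adjusted p = 0.628). Hnrnpu had 254 and 289 RPM in Wfdc15a-/- cells, against 382 and 312 RPM in Wfdc15a+/- cells (log2 difference -0.35, limma adjusted p = 0.696). In both genes Wfdc15a+/- 1 was the highest library, and Hnrnpu is among the most abundant members. Hnrnpd, which encodes the AU-rich element binding protein AUF1, had 18.5 and 18.6 RPM in Wfdc15a-/- cells, against 26.2 and 22.3 RPM in Wfdc15a+/- cells (log2 difference -0.38). Hnrnpa3 had 26.7 and 32.2 RPM in Wfdc15a-/- cells, against 39.3 and 34.8 RPM in Wfdc15a+/- cells (log2 difference -0.33), and 91.0% of its windows occur in other genes.

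Hnrnpk and Hnrnpa2b1, 2 of the most abundant hnRNP genes, had nearly equal group means. Hnrnpk had 269 and 298 RPM in Wfdc15a-/- cells, against 314 and 249 RPM in Wfdc15a+/- cells, a log2 difference of 0.02 with a 95% confidence interval of -0.47 to 0.50. Hnrnpa2b1 had 97.2 and 106 RPM in Wfdc15a-/- cells, against 119 and 78.3 RPM in Wfdc15a+/- cells, a log2 difference of 0.07 (95% confidence interval -0.54 to 0.68). Both intervals leave out a 2-fold change in either direction. In both genes Wfdc15a+/- 1 was the highest and Wfdc15a+/- 2 the lowest library. Under median-ratio scaling the differences of Hnrnpk and Hnrnpa2b1 turned to -0.051 and -0.000967.

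Among Rbm genes, 7 of 39 lay above and 7 below (17.9% each, beside 23.5% and 15% of all tested genes), around a median log2 difference of 0.05. Rbm5, a spliceosome regulator that mouse spermatids need to pass the round stage, had 89.3 and 97.4 RPM in Wfdc15a-/- cells, against 77.9 and 42.4 RPM in Wfdc15a+/- cells. The groups did not overlap, although Wfdc15a+/- 1 lay nearer to the Wfdc15a-/- libraries than to Wfdc15a+/- 2 (log2 difference 0.70, SE 0.32, limma adjusted p = 0.616). Without Wfdc15a+/- 1, which leaves only the low library Wfdc15a+/- 2 in its group, the difference was 1.14. Over all alternatives it ran between 0.26 and 1.14. Its X-linked paralog Rbm10, which regulates exon skipping, lay the other way, at 9.55 and 12.6 RPM in Wfdc15a-/- cells, against 20.96 and 16.8 RPM in Wfdc15a+/- cells (log2 difference -0.77, SE 0.37, limma adjusted p = 0.626). Rbm5 and Rbm10 are both among the members named because their groups do not overlap. Opposite directions in all 4 pairs of libraries follow from that and add nothing further. The contrast between them was not tested. Of the windows of Rbm10, 44.0% occur in other genes.

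Rbm22, which contacts the catalytic RNA core of the spliceosome, had 4.30 and 3.55 RPM in Wfdc15a-/- cells, against 2.08 and 1.77 RPM in Wfdc15a+/- cells. The groups did not overlap, with a ratio of 2.04 and a log2 difference of 1.03 (SE 0.62, limma adjusted p = 0.688), but Wfdc15a+/- 1 held only 12 reads. Rbm3, a protein induced by cold, had 9.88 and 10.8 RPM in Wfdc15a-/- cells, against 6.58 and 6.26 RPM in Wfdc15a+/- cells (log2 difference 0.69, limma adjusted p = 0.686). Rbms1 had 376 and 363 RPM in Wfdc15a-/- cells, against 299 and 322 RPM in Wfdc15a+/- cells, a log2 difference of 0.25 (limma adjusted p = 0.780), and it has the smallest standard error of the members, 0.20. Rbm7 had 143 and 135 RPM in Wfdc15a-/- cells, against 118 and 129 RPM in Wfdc15a+/- cells (log2 difference 0.17). All of these 4 genes had both Wfdc15a-/- libraries on top.

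On the lower side were Rbm28, a nucleolar protein, with 68.9 and 62.6 RPM in Wfdc15a-/- cells, against 73.4 and 97.1 RPM in Wfdc15a+/- cells (log2 difference -0.36, limma adjusted p = 0.756), and the row of Rbm15b that holds most of its reads. Rbm15b belongs to the complex that writes N6-methyladenosine, and this row had 1.80 and 2.04 RPM in Wfdc15a-/- cells, against 3.46 and 3.22 RPM in Wfdc15a+/- cells (log2 difference -0.80, limma adjusted p = 0.779). The other row of the same gene had 1.84 and 0.44 RPM in Wfdc15a-/- cells and 1.04 and 0.95 RPM in Wfdc15a+/- cells and overlapped. The remaining lower members were Rbm12, Rbm14 and Rbm34, by 0.20 to 0.50 on the log2 scale, and the X-linked Rbm10 and Rbmx.

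Rbm25 and Rbm39, both tied to the recognition of splice sites, overlapped. Rbm25 had 176 and 230 RPM in Wfdc15a-/- cells, against 235 and 170 RPM in Wfdc15a+/- cells, a log2 difference of 0.01 that became -0.058 under median-ratio scaling. Rbm39 had 65.1 and 82.7 RPM in Wfdc15a-/- cells, against 75.9 and 81.6 RPM in Wfdc15a+/- cells (log2 difference -0.10). Rbm4b, the gene at the top of the order of levels, had a log2 difference of 0.14, and its highest and lowest libraries were both Wfdc15a+/-. Rbm43, picked here after its values were seen, stood out for 1 library: it had 53.1 and 48.8 RPM in Wfdc15a-/- cells, against 19.1 and 55.7 RPM in Wfdc15a+/- cells. Without Wfdc15a+/- 2, which leaves only the low library Wfdc15a+/- 1 in its group, its difference was 1.42, against 0.64 with all libraries (limma adjusted p = 0.727).

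**Figure D3:**
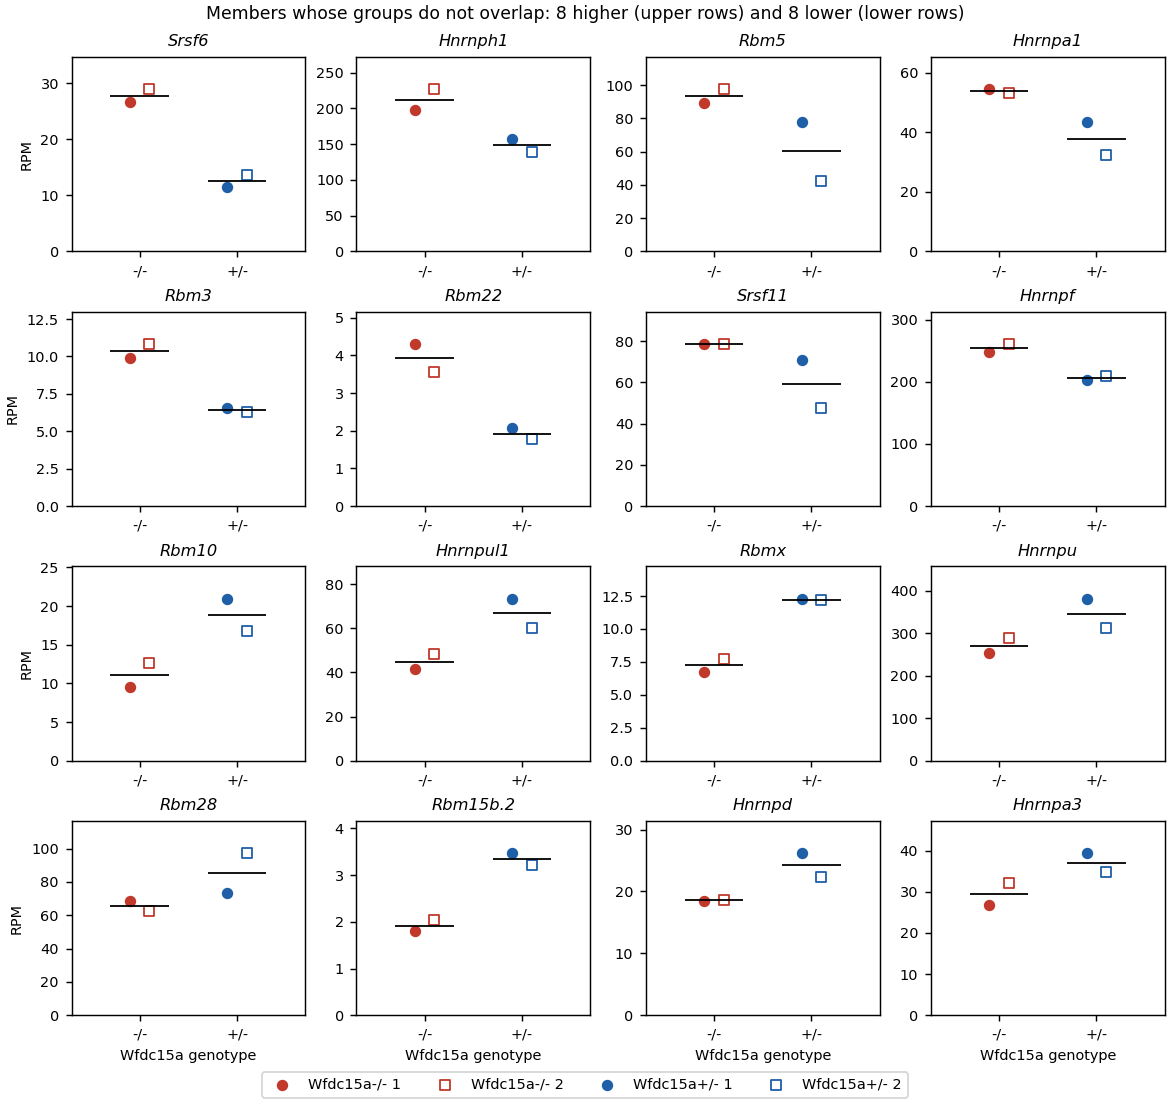
RPM of 16 members in each library (linear axes from 0), Wfdc15a-/- left and Wfdc15a+/- right, with a line at each group mean, for the 8 members with the smallest p in each direction among those whose groups do not overlap. Srsf6 and Rbm22 show ratios of 2.21 and 2.04, and the others show smaller steps.

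The germ cell members and the sex-linked members were described together, since the copies of Rbmx bridge the 2 groups. Rbmx had 6.76 and 7.72 RPM in Wfdc15a-/- cells, against 12.3 and 12.2 RPM in Wfdc15a+/- cells, a ratio of 0.592 (log2 difference -0.76, SE 0.40, limma adjusted p = 0.638). The 2 libraries of each group lay close together and the groups did not overlap. Its retrocopy Rbmxl1 had 3.92 and 2.04 RPM in Wfdc15a-/- cells, against 4.50 and 3.16 RPM in Wfdc15a+/- cells (log2 difference -0.42, limma adjusted p = 0.901), with overlapping groups. Rbmxl2, the testis-specific copy that encodes hnRNP G-T and is needed in meiosis in mice, had 2.17 and 1.15 RPM in Wfdc15a-/- cells, against 0.69 and 1.33 RPM in Wfdc15a+/- cells (log2 difference 0.72, limma adjusted p = 0.886). The value of Wfdc15a+/- 1 rests on 4 reads, and the groups overlapped. Per kb of exon, Rbmx was at 3.13, Rbmxl1 at 2.01 and Rbmxl2 at 0.909 RPM per kb as means over all libraries. In single libraries, on the same scale, Rbmx was below Rbmxl1 in Wfdc15a-/- 1 (2.18 against 2.31 RPM per kb) and above both copies in the other 3. Reads from introns are counted, and per kb of the whole span the means of Rbmx, Rbmxl1 and Rbmxl2 were 1.02, 0.931 and 0.909 RPM. The distance between Rbmx and its copies thus depends on the length used as divisor.

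Of the 6 X-linked members, 4 were tested, with 1 above (Rbm3) and 2 below (Rbm10 and Rbmx). Hnrnph2 had 15.5 and 16.9 RPM in Wfdc15a-/- cells, against 17.7 and 12.5 RPM in Wfdc15a+/- cells (log2 difference 0.12), with overlapping groups. The 599 tested genes of the X chromosome had a median log2 difference of 0.30, beside 0.068 for all tested genes, with 198 above (33.1%, beside 23.5%) and 62 below (10.4%, beside 15%). Rbmx2 and Rbm41 were under the filter. Rbmx2, a spliceosome component, had 0.85 and 0.89 RPM in Wfdc15a-/- cells, against 0 and 1.12 RPM in Wfdc15a+/- cells, where 3 reads in Wfdc15a+/- 1 would be 0.520 RPM. Rbm41, of the minor spliceosome, had 0.19 and 1.77 RPM in Wfdc15a-/- cells, against 0.35 and 0.06 RPM in Wfdc15a+/- cells. On the Y chromosome, Rbmy1a1 had reads only in Wfdc15a+/- 2, at 0.53 RPM, one row of Rbm31y had 0 reads in all libraries, and the other had 0.57 and 0.98 RPM in Wfdc15a-/- cells, against 0.69 and 0.77 RPM in Wfdc15a+/- cells. A count of 0 sets no limit below 3 reads, which is 0.142 and 0.266 RPM in Wfdc15a-/- libraries and 0.520 and 0.0886 RPM in Wfdc15a+/- libraries, for counting error only.

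Rbm44 and Rbm46 are expressed mainly in germ cells. Rbm44 encodes a partner of TEX14 at the bridges between germ cells, and it had 64.7 and 79.8 RPM in Wfdc15a-/- cells, against 75.7 and 43.8 RPM in Wfdc15a+/- cells (log2 difference 0.32, limma adjusted p = 0.831). Rbm46, which mouse germ cells need for meiosis, had 24.5 and 29.3 RPM in Wfdc15a-/- cells, against 29.1 and 11.2 RPM in Wfdc15a+/- cells (log2 difference 0.57, limma adjusted p = 0.771). In both genes 3 libraries lay close together and Wfdc15a+/- 2 was low, so the sign of each difference rests on that library: without it they were -0.075 and -0.12.

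The same library was the lowest for many members. Wfdc15a+/- 2 had the lowest value in 31 of 68 members (45.6%), beside 30.4% of all tested genes, and Wfdc15a-/- 2 had the highest in 24 (35.3%), beside 22.1%. The median log2 difference of Wfdc15a+/- 2 from Wfdc15a+/- 1 was -0.54 over SR genes and -0.38 over hnRNP genes, but -0.07 over Rbm genes, beside -0.099 over all tested genes. Over the other splicing lists this median ran between -0.43 (other regulators) and 0.16 (kinases). Summed RPM of all members were 3861 and 4238 in Wfdc15a-/- cells, against 4064 and 3606 RPM in Wfdc15a+/- cells. Without Wfdc15a+/- 2 the median log2 difference of the members was -0.069 in place of 0.13, so the direction of the family as a whole depends on 1 library.

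Markers of the cell types were read beside these values. The 12 round spermatid markers, such as Acrv1, Tnp1 and Prm2, were present in all libraries and summed to 4398 and 3695 RPM in Wfdc15a-/- cells, against 4100 and 6488 RPM in Wfdc15a+/- cells. They did not move as one: Tnp1, Tnp2, Prm1 and Prm2, genes of the proteins that replace histones, were lower in both Wfdc15a-/- libraries (Tnp2 at 173 and 127 RPM in Wfdc15a-/- cells, against 393 and 582 RPM in Wfdc15a+/- cells), and Acrv1, Spaca1 and Izumo1 were higher in both. At an unadjusted p under 0.05, 4 of the 12 were lower and 0 higher, and 0 passed after adjustment in limma. The 8 spermatocyte markers summed to 903 and 1014 RPM in Wfdc15a-/- cells, against 1057 and 757 RPM in Wfdc15a+/- cells. The hnRNP members summed to 1501 and 1665 RPM in Wfdc15a-/- cells, against 1696 and 1369 RPM in Wfdc15a+/- cells. The SR members summed to 494 and 536 RPM in Wfdc15a-/- cells, against 529 and 399 RPM in Wfdc15a+/- cells, and the Rbm members to 1867 and 2036 RPM in Wfdc15a-/- cells, against 1840 and 1838 RPM in Wfdc15a+/- cells. Wfdc15a+/- 2 was the lowest library for the spermatocyte markers and for each family, and the highest library was Wfdc15a+/- 1 for the spermatocyte markers and hnRNP genes and Wfdc15a-/- 2 for SR and Rbm genes. In bulk samples a different share of cells of one stage and a different amount of RNA per cell cannot be told apart. The 12 macrophage markers summed to 350.2 and 120 RPM in Wfdc15a-/- cells, against 37.2 and 38.5 RPM in Wfdc15a+/- cells, and 11 of the 12 lay above in both Wfdc15a-/- libraries. The 6 Leydig cell markers summed to 35.5 and 15.7 RPM in Wfdc15a-/- cells, against 6.41 and 3.16 RPM in Wfdc15a+/- cells. Spermatogonium markers (8 genes) summed to 88.6 and 74.3 RPM in Wfdc15a-/- cells, against 59.2 and 50.9 RPM in Wfdc15a+/- cells, and 7 Sertoli cell markers to 42.8 and 38.5 RPM in Wfdc15a-/- cells, against 15.9 and 31.5 RPM in Wfdc15a+/- cells, with Amh at 0 reads in all libraries. Most of the Sertoli sums was Clu, at 37.2 and 29.6 RPM in Wfdc15a-/- cells, against 10.7 and 25.6 RPM in Wfdc15a+/- cells. Of the 4 tested Sertoli markers 2 had a log2 difference above 0 and 2 below. The 4 peritubular markers summed to 6.43 and 5.68 RPM in Wfdc15a-/- cells, against 1.73 and 1.71 RPM in Wfdc15a+/- cells. The part of these cell types in the members' differences was not tested.

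Other genes of the splicing machinery, from 5 lists without the members, likewise held 0 genes with an adjusted p under 0.05. Their counts stand beside 6.21% higher and 1.87% lower at an unadjusted p under 0.05, and 23.5% above and 15% below, over all tested genes. Among 29 core snRNP and U2 proteins, 2 were higher and 2 lower at an unadjusted p under 0.05, 6 lay above (20.7%) and 7 below (24.1%), and the median log2 difference was -0.07. U2af2, the large subunit of the U2 auxiliary factor, had 11.8 and 10.9 RPM in Wfdc15a-/- cells, against 5.20 and 4.46 RPM in Wfdc15a+/- cells (log2 difference 1.24, limma adjusted p = 0.561), and Sf3b3, of the U2 particle, was at 0.89. Snrpc, of the U1 particle, had 16.4 and 12.2 RPM in Wfdc15a-/- cells, against 54.0 and 23.0 RPM in Wfdc15a+/- cells (log2 difference -1.32, limma adjusted p = 0.538), and Snrpf, of the Sm ring, was at -0.94, with Wfdc15a+/- 1 the high library for both. Among 39 proteins of the tri-snRNP and the catalytic complex, 0 were higher and 1 lower at that level, 7 lay above (17.9%) and 5 below (12.8%), and the median was 0.11. The lower one was Cwc22, which loads the exon junction complex, with 2.27 and 45.2 RPM in Wfdc15a-/- cells, against 63.9 and 64.5 RPM in Wfdc15a+/- cells, so a single Wfdc15a-/- library stood apart. Eftud2 and Prpf8, both of the U5 particle, were at 0.52 and 0.70 on the log2 scale, and Snrnp27 was at -0.68, none of them with an unadjusted p under 0.05.

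Among 19 genes of the exon junction complex and mRNA export, 1 was higher, 1 lower, 2 lay above and 2 below (10.5% each), with a median of -0.04. Nxf1, the main export receptor of mRNA, had 196 and 197 RPM in Wfdc15a-/- cells, against 314 and 265 RPM in Wfdc15a+/- cells (log2 difference -0.56, limma adjusted p = 0.586), and Pnn, an SR-related protein of that complex, had 16.1 and 12.6 RPM in Wfdc15a-/- cells, against 8.14 and 5.29 RPM in Wfdc15a+/- cells (log2 difference 1.12). Rnps1 was at 0.93 and Acin1 at -0.26 on the log2 scale. Of 9 kinases of SR proteins 8 were tested, with 1 higher, 0 lower, 3 above (37.5%) and 0 below, and a median of 0.32. Prpf4b had 11.2 and 16.3 RPM in Wfdc15a-/- cells, against 5.54 and 7.06 RPM in Wfdc15a+/- cells (log2 difference 1.11, limma adjusted p = 0.585). Clk4 had 173 and 208 RPM in Wfdc15a-/- cells, against 135 and 132 RPM in Wfdc15a+/- cells (log2 difference 0.50, limma adjusted p = 0.616). The most abundant of the named kinases, Srpk1, had 427 and 367 RPM in Wfdc15a-/- cells, against 431 and 387 RPM in Wfdc15a+/- cells, and its groups overlapped.

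Among 53 other splicing regulators, 5 were higher and 0 lower at an unadjusted p under 0.05, 14 lay above (26.4%) and 7 below (13.2%), and the median was 0.11. Celf4, known as a neuronal regulator of splicing and mRNA stability, had 19.2 and 17.3 RPM in Wfdc15a-/- cells, against 5.72 and 6.32 RPM in Wfdc15a+/- cells (log2 difference 1.60, SE 0.39, limma adjusted p = 0.345), the smallest p among the named genes of the 5 lists. Pcbp1, a poly(C)-binding protein, had 11.0 and 9.58 RPM in Wfdc15a-/- cells, against 4.50 and 3.69 RPM in Wfdc15a+/- cells (log2 difference 1.33, limma adjusted p = 0.546). Khdrbs3 and Mbnl2, at -0.50 and -0.57, had the smallest p among the genes on the lower side, where none had an unadjusted p under 0.05.

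**Figure D4:**
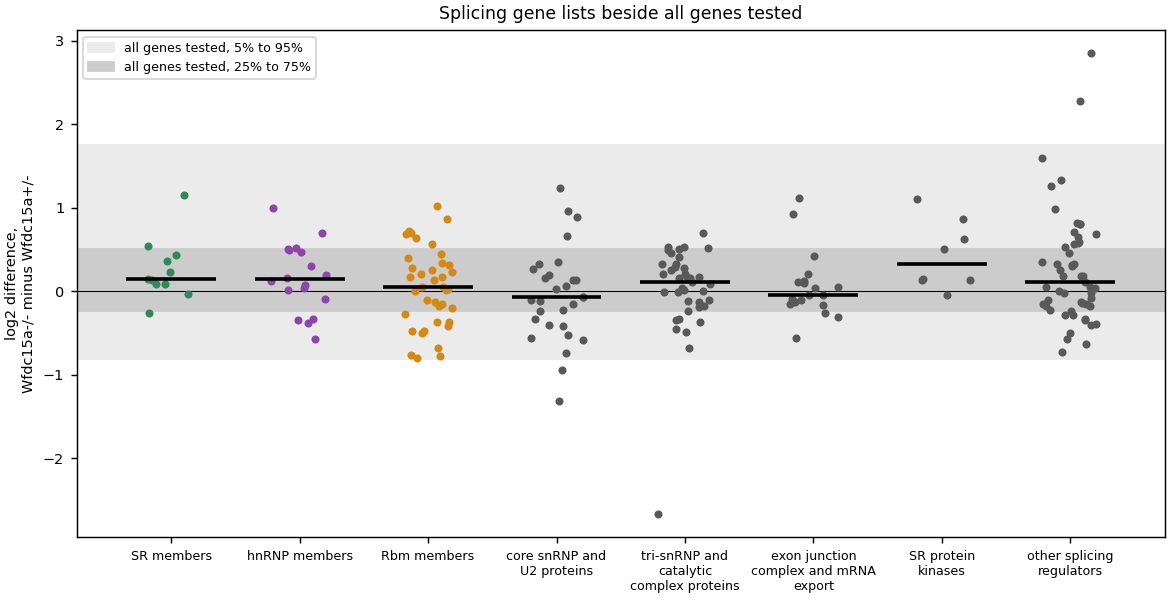
Log2 difference of single genes, Wfdc15a-/- minus Wfdc15a+/-, for the SR, hnRNP and Rbm members and 5 other splicing lists, with the list median as a bar, over grey bands that hold 50% and 90% of all tested genes. The list medians run between -0.07 and 0.32, and the lowest point, Cwc22 at -2.67, rests on 1 Wfdc15a-/- library.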

How the data were processed

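RNA of FACS-sorted round spermatids was amplified with Smart-seq2 and tagmented with Nextera XT, per the labels' protocols. The submitters' processing notes name the mm10 build and the tools HISAT2 2.1.0, Trim Galore 0.6.6 and FastQC 0.11.8, while a counting tool was not given in the sources used here. Per gene, the authors deposited log2 RPM values with mm10 coordinates. The lowest value of a library equals 0.9 of a read, and 99.7% to 100.0% of the other values were whole reads within 0.01 of a read. Reads in listed genes made up 95.1% to 97.0% of the totals.

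The test was two-sided in limma 3.58.1 (R 4.3.3) on the deposited log2 values, along a mean-variance trend, for the 15888 genes that reached 1 RPM in 2 or more libraries, and p-values were adjusted over all of them by Benjamini-Hochberg. The code was tested on simulated data. Exon lengths, coding sequences and shared 50-base windows came from GENCODE M21, and promoters from RefSeq. Protein sequences were not analysed here. Without molecular identifiers, PCR reads do not stand for independent molecules. Groups and replicate numbers came from the sample titles. Plots and tables used Python 3.11.15, pandas 2.3.3, numpy 2.4.6 and matplotlib 3.10.9.

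The text names, in each family, the 5 members with the highest level per kb, per direction the 8 with the smallest p whose groups do not overlap, the sex-linked and germ cell members, and from each other list the 2 with the smallest p per direction. The members, the lists and this rule were chosen with earlier results of these data known. A few others are named where a count or a copy required it, after their values were seen. Alternatives were median-ratio and quantile scaling, log2(RPM + 1), no filter, a filter of 5 RPM, no variance trend, voom on the whole reads, a replicate block and leaving out each library.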

Additional observations from a re-analysis of the deposited data

How the results depend on the processing

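Whether replicate numbers pair the libraries is not stated in the labels. Over 15888 genes the replicate differences of the groups correlated at -0.0761, so no shared replicate effect was seen. A single correlation between libraries of unlike depth cannot exclude a pairing. With a replicate block 66 genes passed an adjusted p of 0.05 and 1 member was higher at an unadjusted p under 0.05, with 0 members passing. Genes passing the adjusted threshold numbered 0 with the settings as reported, 1 with log2(RPM + 1), 180 with no filter and 0 to 558 when a library was left out (558 without Wfdc15a+/- 2, 442 without Wfdc15a+/- 1, 5 without Wfdc15a-/- 2). Genes at an unadjusted p under 0.05 numbered 986 higher, and 1609 with no filter, 587 with a filter of 5 RPM, 1584 with voom and 315 to 1875 without a library. Lower genes numbered 297, and 456 with median-ratio scaling, 528 with quantile normalization, 477 with no filter and 189 to 957 without a library.

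Members passing the adjusted threshold numbered 0 in every setting except without Wfdc15a+/- 1 (2 members, Rbm5 and Hnrnpm, adjusted p = 0.0277 and 0.0340) and without Wfdc15a+/- 2 (1 member, Rbm43). Members higher at an unadjusted p under 0.05 numbered 2, and 1 with median-ratio scaling, 5 with no filter, 6 with voom and 0 to 11 without a library. Lower members numbered 0, and 2 with either other scaling, 1 with no variance trend and 0 to 4 without a library. Srsf6 kept an unadjusted p under 0.05 in all 8 settings that used all libraries and lost it without Wfdc15a-/- 2 (log2 difference 1.09, limma adjusted p = 0.9996), and its log2 difference ran between 1.02 and 1.28 over all 12 alternatives (limma adjusted p between 0.065 and 1.0). With 1 library of a group left out, the lone library was assumed to vary like the others. Members above then numbered 21 to 39, members below 16 to 26, and the median of the members ran between -0.069 and 0.21. A group of 1 library overlaps less easily with a group of 2, so these counts cannot be compared with those from all libraries. No share over all tested genes is given for these settings, so the counts do not set the members apart from other genes. Of the alternatives for single named members, 363 kept direction and side of the threshold, 1 (Rbm5) passed and 16 changed sign. Of these, 3 came with median-ratio scaling (-0.000967 for Hnrnpa2b1, -0.051 for Hnrnpk and -0.058 for Rbm25). The others came with a library left out, where log2 differences ran between -0.075 and 0.71 for Rbm44, -0.12 and 1.26 for Rbm46, -0.27 and 0.072 for Rbm39, -0.23 and 0.37 for Hnrnpa2b1, -0.15 and 0.19 for Hnrnpk, -0.22 and 0.24 for Rbm25, -0.13 and 0.37 for Hnrnph2, -0.89 and 0.056 for Rbmxl1, -0.069 and 0.36 for Srsf2, -0.53 and 0.015 for Srsf7 and -0.30 and 0.58 for Rbm4b. The cause of these changes was not tested.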
